A study of Mus musculus with 12 samples.

Results

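The stromelysins Mmp3 and Mmp10 and the collagenases Mmp13 and Mmp8 were followed in the colon of mice with and without dextran sulfate sodium (DSS) colitis and oral L-arginine (L-Arg). The genes were found by symbol among the probe sets of the array that carry exactly 1 gene, and each had 1 such probe set, so that they are 4 of 19938 genes tested. All 4 passed a filter that asks for a log2 signal over 5.89 in at least 3 mice, as 14510 genes did. Mmp3 and Mmp8 exceeded that level in the 3 DSS mice alone, so that they passed only through the group in which they were high.

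Matrix metalloproteinases are zinc-dependent proteases that are secreted as inactive proenzymes and cut the proteins of the extracellular matrix once a propeptide has been removed. Collagenases cut the intact triple helix of fibrillar collagen, while stromelysins cut proteoglycans, fibronectin and laminin and activate other proenzymes of the family. Both are scarce in the healthy gut and are known from the wound edges, granulation tissue and ulcers of inflamed bowel, where stromal cells and macrophages are sources of stromelysins, and neutrophils carry Mmp8 in their granules.

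Each of 12 mice gave colon RNA for its own Affymetrix Gene ST array, and the mice formed 4 groups of 3. The DSS+L-Arg mice drank 4% DSS for 6 days and then 1% L-Arg for 4 days. The DSS mice drank the same DSS followed by plain water, the control+L-Arg mice had L-Arg without DSS, and the control mice had neither. All were male wild-type C57BL/6 mice, 7 weeks old at the start and 8 weeks and 3 days old by the labels, killed on day 10, so that the DSS mice were sampled 4 days after DSS had been withdrawn. Per the study's general methods, a proximal and a distal piece of each colon were combined. A change in such bulk tissue can come from the number of cells of a type or from the RNA per cell, and these cannot be told apart here. The arrays measured mRNA and not protein or enzyme activity.

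The tissue carried the markers of colonic epithelium, since Epcam lay between 12.03 and 12.27 and Vil1 between 11.74 and 12.23 on the log2 scale over the 12 arrays. Array medians lay between 6.49 and 6.64. The labels give no batch or scan date.

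Mmp13, or collagenase-3, the main interstitial collagenase of rodents, had log2 signals of 10.86, 11.03 and 10.52 in DSS mice 1, 2 and 3, and of 5.88, 6.05 and 5.21 in control mice 1, 2 and 3. The DSS mice lay far above every other mouse and within a narrow range of each other. Among DSS+L-Arg mice, Mmp13 was 7.67, 6.78 and 6.67, and among control+L-Arg mice it was 7.19, 5.71 and 6.19. The DSS+L-Arg mice all lay below the DSS mice and above the control mice, and they overlapped the control+L-Arg mice, of which mouse 1 was the highest of all mice that had no DSS.

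Mmp3, or stromelysin-1, which cuts a broad range of matrix proteins, had log2 signals of 8.55, 8.91 and 7.78 in DSS mice and 5.15, 4.96 and 4.93 in control mice. It was 5.55, 5.77 and 5.20 in DSS+L-Arg mice and 5.61, 4.98 and 5.02 in control+L-Arg mice. The 3 DSS mice again stood apart from all others, and the control mice varied little (SD 0.12, n = 3). Mmp10, or stromelysin-2, its closest relative, had 9.46, 9.84 and 8.99 in DSS mice and 6.38, 6.29 and 6.12 in control mice. It was 6.87, 6.59 and 6.49 in DSS+L-Arg mice and 6.98, 6.31 and 6.36 in control+L-Arg mice. For both stromelysins the order of the DSS mice was the one seen for Mmp13, with mouse 2 highest and mouse 3 lowest, and control+L-Arg mouse 1 was the highest mouse without DSS. The probe letters were not used here, so hybridization of one stromelysin's RNA to the probes of the other was not tested.

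Mmp8, the neutrophil collagenase, had another order among the DSS mice than the other 3 genes. Its log2 signals were 7.89, 6.75 and 9.97 in DSS mice and 4.34, 5.50 and 4.13 in control mice. It was 5.17, 4.59 and 4.91 in DSS+L-Arg mice and 4.93, 4.25 and 4.41 in control+L-Arg mice. Here DSS mouse 3 was the highest and mouse 2 the lowest, the reverse of the order for Mmp3, Mmp10 and Mmp13, and the DSS mice still lay above every mouse of the other groups. The DSS mice were spread more widely for Mmp8 than for the other 3 genes.

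**Figure D1:**
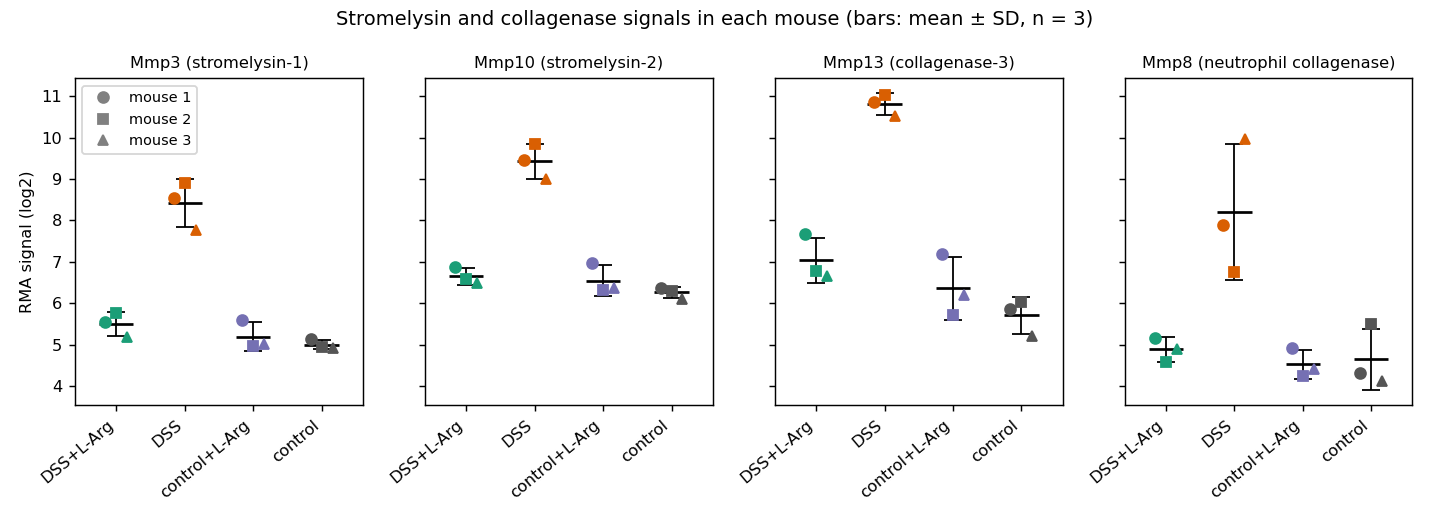
RMA signal (log2) of each gene in each mouse of the 4 groups, with the group mean and SD as bars (n = 3) and the symbol giving the mouse number within its group. The 3 DSS mice lie above all other mice in every panel, and DSS mouse 3 is the lowest DSS mouse for Mmp3, Mmp10 and Mmp13 and the highest for Mmp8.

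The comparison of DSS with control mice asks which of the genes were higher in colitis. All 4 rose at an adjusted p under 0.05, where 1.8% of all genes did, and all 4 passed the thresholds of the study (p under 0.01 with a fold change over 2), as did 1.32% of all genes in this direction. In all 4, every DSS mouse lay above every control mouse, which held for 10.7% of all genes. Mmp13 had the highest log2 fold change of the 19938 genes, 5.09 ± 0.37 (SE), or 34.1-fold (adjusted p = 7.72e-05). Mmp8 rose by 3.55 ± 0.64 (11.7-fold, adjusted p = 0.013), Mmp3 by 3.41 ± 0.26 (10.6-fold, adjusted p = 0.000125) and Mmp10 by 3.16 ± 0.22 (8.97-fold, adjusted p = 5.74e-05), which placed them at ranks 12, 14 and 18. The median of the 4 log2 fold changes was 3.48, while that of all genes was -0.01. The control means of Mmp8 (4.65), Mmp3 (5.01) and Mmp13 (5.71) lie below 5.89, near the low end of array signals, where an array resolves levels poorly, so these folds are approximate.

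The size of the Mmp8 change rested on single DSS mice. It was 19.4-fold without DSS mouse 2 (adjusted p = 0.00448) and 6.36-fold without DSS mouse 3 (adjusted p = 0.0088). The call was lost without control mouse 1 (adjusted p = 0.0567) or control mouse 3 (adjusted p = 0.0655), and it was lost when only the DSS and control arrays were fitted (adjusted p = 0.106). The calls of Mmp3, Mmp10 and Mmp13 stood in each of the 12 fits with 1 mouse left out. A test with a separate variance for each group gave all 4 genes an unadjusted p under 0.05 but called 0 of the 4, and 0 of all genes, at an adjusted p under 0.05.

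Set against the control+L-Arg mice, the DSS mice were compared with a separate set of mice without DSS, although the DSS arrays are shared. All 4 rose at an adjusted p under 0.05 (1.99% of all genes) and at the thresholds of the study (1.31%), and in none did the groups overlap (9.6% of all genes were higher without overlap). The log2 fold change was 4.44 for Mmp13 (adjusted p = 0.000209), 3.67 for Mmp8 (adjusted p = 0.015), 3.21 for Mmp3 (adjusted p = 2e-04) and 2.88 for Mmp10 (adjusted p = 0.00016). The Mmp8 call was lost without control+L-Arg mouse 1 (adjusted p = 0.0525) or mouse 3 (adjusted p = 0.0533) and when only the arrays compared were fitted (adjusted p = 0.118), and the separate-variance test called 0 of the 4, 3 of which had an unadjusted p under 0.05.

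None of the 4 genes passed the test for L-Arg alone, in mice without DSS. The log2 difference between control+L-Arg and control mice was 0.65 for Mmp13 (95% interval -0.16 to 1.46), 0.29 for Mmp10 (-0.19 to 0.77), 0.19 for Mmp3 (-0.38 to 0.77) and -0.12 for Mmp8 (-1.52 to 1.27). With limma, 0 of the 4 genes passed at an adjusted p under 0.05, and 0% of all genes did, while 0 of the 4 had an unadjusted p under 0.05. The unequal-variance test likewise called 0 of the 4, with 0 at an unadjusted p under 0.05. These intervals leave room for a change of over 2-fold for Mmp13 upward or for Mmp8 in either direction. With 1 mouse left out the Mmp13 difference ranged over 0.24 (without control+L-Arg mouse 1) to 0.98 (without control+L-Arg mouse 2).

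In DSS+L-Arg mice, all 4 genes fell relative to DSS mice. The log2 difference was -3.77 ± 0.37 (SE) for Mmp13 (13.6-fold lower, adjusted p = 0.00133), -2.91 ± 0.26 for Mmp3 (7.50-fold lower, adjusted p = 0.000945), -2.78 ± 0.22 for Mmp10 (6.86-fold lower, adjusted p = 0.000312) and -3.31 ± 0.64 for Mmp8 (9.94-fold lower, adjusted p = 0.0484). The 4 passed at an adjusted p under 0.05 against a background of 0.522% of all genes, at the thresholds of the study against 0.843%, and without overlap of the groups against 5.6%. By the size of the fall, Mmp13 was at rank 3 of all genes, Mmp8 at rank 6, Mmp3 at rank 14 and Mmp10 at rank 16.

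The call of Mmp8 in this comparison stood close to the threshold. It was lost without any 1 of the control, control+L-Arg and DSS+L-Arg mice, with adjusted p between 0.0551 and 0.174, while leaving out DSS mouse 1, 2 or 3 kept it (adjusted p = 0.0477, 0.0149 and 0.0298). It was also lost when only these 6 arrays were fitted (adjusted p = 0.217) and with a trended and robust prior (adjusted p = 0.0873), and the test with a separate variance for each group called 0 of the 4 genes, 3 of which had an unadjusted p under 0.05. Its fold was 16.4 without DSS mouse 2 and 5.40 without DSS mouse 3.

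The effect of L-Arg differed between mice with and without DSS for 3 of the 4 genes in a test of the difference itself. This difference of differences was -4.42 ± 0.52 (SE) on the log2 scale for Mmp13 (adjusted p = 0.0119), -3.10 ± 0.37 for Mmp3 (adjusted p = 0.0119) and -3.07 ± 0.31 for Mmp10 (adjusted p = 0.00315), where 0.0652% of all genes passed in this direction. For Mmp8 it was -3.19 ± 0.90 (adjusted p = 0.24). The 3 called genes were already low without DSS, with control means of 5.71 for Mmp13, 5.01 for Mmp3 and 6.26 for Mmp10. That left little room for a fall of the size seen with DSS. The test therefore cannot tell whether L-Arg acts only in mice with DSS. Mmp3 lost its call without control mouse 3 (adjusted p = 0.0633), and Mmp13 lost it without DSS+L-Arg mouse 2 (adjusted p = 0.0548). Without DSS+L-Arg mouse 3 both lost it (adjusted p = 0.0555 for each), and Mmp10 kept it in all 12 such fits.

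**Figure D2:**
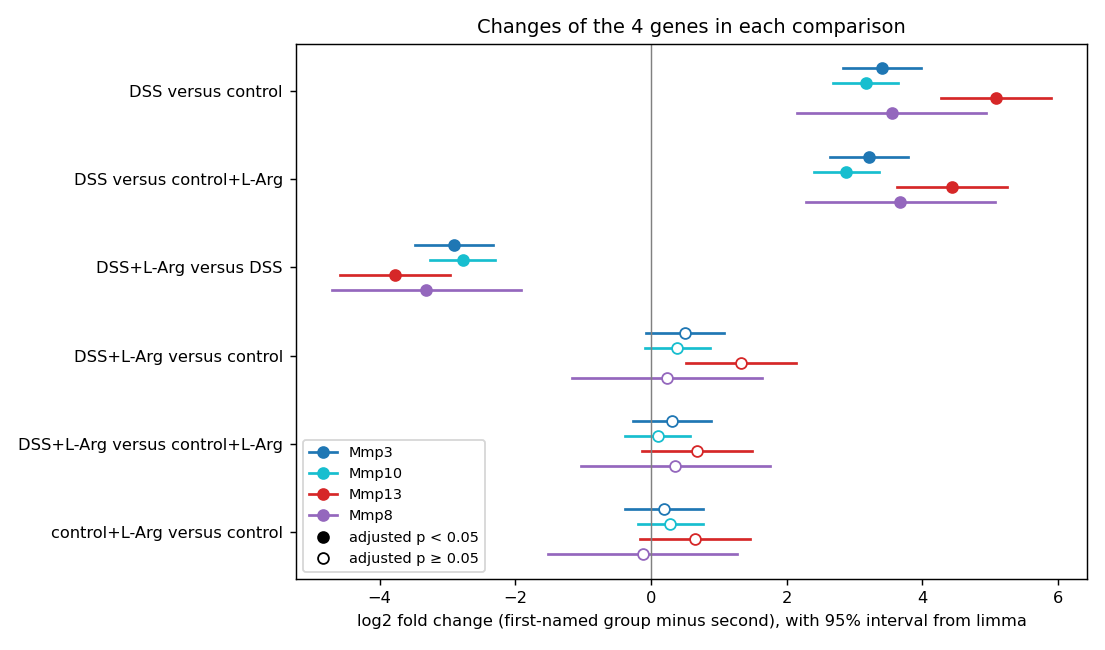
Log2 fold change of each gene with its 95% interval from limma in 6 comparisons between groups, as the group named first minus the other, with filled points where the adjusted p was under 0.05. All 4 genes are filled in both comparisons of DSS mice with mice without DSS and in DSS+L-Arg against DSS mice, and open in the other 3 comparisons, where the values lie between -0.12 and 1.33.

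Whether the DSS+L-Arg mice had returned to the level of mice without DSS was read from comparisons with both groups that had none. Against control mice, Mmp13 was 1.33 ± 0.37 (SE) higher on the log2 scale (2.51-fold, 95% interval of the log2 difference 0.51 to 2.14, adjusted p = 0.218), Mmp3 was 0.50 ± 0.26 higher (-0.08 to 1.07, adjusted p = 0.463), Mmp10 was 0.39 ± 0.22 higher (-0.09 to 0.87, adjusted p = 0.494) and Mmp8 was 0.24 ± 0.64 higher (-1.16 to 1.63, adjusted p = 0.903). With limma, 0 of the 4 passed at an adjusted p under 0.05 (0.0301% of all genes did in this direction), and 1, Mmp13, had an unadjusted p under 0.05, of 0.0041. Mmp13 was also the 1 of the 4 at the thresholds of the study (0.196% of all genes), and the unequal-variance test gave the same counts of 0 and 1. The DSS+L-Arg mice lay above all control mice for Mmp13, Mmp3 and Mmp10, which 13.5% of all genes did, and overlapped them for Mmp8. Mmp3 and Mmp8 lay below 5.89 in every mouse of both groups, so a small remaining difference could be missed.

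Against control+L-Arg mice, which drank the same L-Arg, the log2 differences were smaller for the 3 genes other than Mmp8. They were 0.67 for Mmp13 (95% interval -0.14 to 1.48, adjusted p = 0.404), 0.30 for Mmp3 (-0.27 to 0.88, adjusted p = 0.608), 0.10 for Mmp10 (-0.38 to 0.58, adjusted p = 0.865) and 0.36 for Mmp8 (-1.04 to 1.75, adjusted p = 0.825). The groups overlapped for each of the 4 genes, while 12.9% of all genes were higher in DSS+L-Arg mice without overlap. With limma 0 of the 4 passed at an adjusted p under 0.05 (0.201% of all genes), 0 at the thresholds of the study (0.296%) and 0 at an unadjusted p under 0.05, and the unequal-variance test gave 0 on both counts. The intervals leave room for a remaining elevation of Mmp13 or Mmp8 of over 2-fold. With 1 mouse left out the Mmp13 difference ranged over 0.34 to 1.08.

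Expressed per mouse as the share of the log2 change from control to DSS that was left after L-Arg, Mmp13 kept 38.4%, 20.9% and 18.8%, or 26.0% ± 10.8 (SD, n = 3). The share was 14.6% ± 8.47 for Mmp3, 12.2% ± 6.19 for Mmp10 and 6.68% ± 8.18 for Mmp8, whose mice had 14.6%, -1.71% and 7.11%. The range of Mmp13 overlapped those of Mmp3 and Mmp10 and lay above that of Mmp8. Both the change and its remainder use the DSS arrays, so these shares are a description. For Mmp3 and Mmp8 every control and DSS+L-Arg mouse lay below 5.89, where levels are resolved poorly, so their small shares and their order are approximate. Without any 1 of the control, DSS or DSS+L-Arg mice, the share ranged over 19.8% to 29.6% for Mmp13, 10.7% to 19.1% for Mmp3, 8.77% to 14.7% for Mmp10 and -0.76% to 16.6% for Mmp8, lowest for Mmp8 without control mouse 3 and highest without control mouse 2. With control+L-Arg as the baseline, shares were 15.1% for Mmp13, 9.49% for Mmp3, 3.45% for Mmp10 and 9.80% for Mmp8, so that Mmp10 and not Mmp8 was the lowest. On the linear scale of signal they were 4.80% for Mmp13, 4.22% for Mmp3, 3.81% for Mmp10 and 0.58% for Mmp8.

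For each gene the DSS group had the highest mean and DSS+L-Arg the next, followed by control+L-Arg and then control, an order that the lowest groups reversed for Mmp8. DSS+L-Arg averaged 7.04 ± 0.55 for Mmp13, 5.51 ± 0.29 for Mmp3, 6.65 ± 0.20 for Mmp10 and 4.89 ± 0.29 for Mmp8 (SD, n = 3). DSS averaged 10.80 ± 0.26 for Mmp13, 8.42 ± 0.58 for Mmp3, 9.43 ± 0.42 for Mmp10 and 8.21 ± 1.63 for Mmp8. Control+L-Arg averaged 6.37 ± 0.75, 5.20 ± 0.35, 6.55 ± 0.37 and 4.53 ± 0.36 for the same genes in that order, and control 5.71 ± 0.44, 5.01 ± 0.12, 6.26 ± 0.13 and 4.65 ± 0.74. Only the step between DSS and DSS+L-Arg passed the test, and the neighbours below it in the order did not pass.

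Whether 2 of the genes rose by different amounts was tested on the difference of their signals within each mouse, between the 3 DSS mice and the 6 mice without DSS, with an exact two-sided permutation test over the 6 pairs of genes. The change of Mmp13 minus that of Mmp3 was 1.46 and minus that of Mmp10 was 1.75 on the log2 scale, both with exact p = 0.0238 (adjusted p = 0.0714), the smallest p that 3 against 6 mice allow. For Mmp3 minus Mmp10 it was 0.29 (exact p = 0.0476, adjusted p = 0.0952). Against Mmp8 the differences were 1.15 for Mmp13 (exact p = 0.2143), -0.30 for Mmp3 (exact p = 0.5714) and -0.59 for Mmp10 (exact p = 0.5476). None of the 6 pairs passed at an adjusted p under 0.05. Even 2 pairs at the smallest possible p had an adjusted p of 0.0714, so 3 against 6 mice could hardly pass. This outcome therefore does not show that the genes rose by the same amount. The differences against Mmp8 rested on single DSS mice. Without DSS mouse 2 they were 0.31 for Mmp13, -1.28 for Mmp3 and -1.52 for Mmp10, and without DSS mouse 3 they were 2.18, 0.90 and 0.51 for the same genes in that order.

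Over the 12 arrays, each of the 2 stromelysins had the other as the gene with the most similar pattern. Pearson's r was 0.994 between Mmp3 and Mmp10, 0.984 between Mmp10 and Mmp13 and 0.975 between Mmp3 and Mmp13, and each of these genes had the other two as its nearest genes of all 19938. The arrays share their 4 groups, so that genes that differ between groups correlate, and r is a description. Once the group means had been removed, r over the 12 arrays was 0.893 for Mmp3 with Mmp10, 0.826 for Mmp10 with Mmp13 and 0.589 for Mmp3 with Mmp13. Mmp8 lay farther off, at 0.869 with Mmp13, 0.838 with Mmp10 and 0.812 with Mmp3, and within groups at 0.107, -0.431 and -0.636. Within groups, Mmp8 varied most among the 3 DSS mice (SD 1.63, against 0.74 in control, 0.36 in control+L-Arg and 0.29 in DSS+L-Arg mice). The reversed order of those DSS mice, given above, thus weighs heavily in its r within groups.

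The next genes in likeness to Mmp3, Mmp10 and Mmp13 were few and shared. Plau, or urokinase, the protease that turns plasminogen into plasmin and so feeds proenzyme activation, had r of 0.972 with Mmp3, 0.978 with Mmp10 and 0.968 with Mmp13. Plau was 8.69, 8.72 and 8.37 in DSS mice and 5.75, 5.77 and 5.88 in control mice, with DSS mouse 3 again the lowest of its group. Ms4a4a followed Mmp10 (0.975) and Mmp13 (0.972), Spon1 followed Mmp3 (0.968) and Mmp10 (0.972), and Saa3, an acute phase protein, followed Mmp13 (0.969). Il6, whose log2 signal lay below 5.89 in every mouse, followed Mmp3 (0.970).

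The 5 genes nearest to Mmp8 were Itgam (r = 0.988), Lilrb4a (0.987), Ifitm6 (0.987), Trem1 (0.985) and Alox5ap (0.984). Itgam encodes a chain of the integrin Mac-1 of neutrophils and macrophages, Trem1 a receptor of myeloid cells and Alox5ap a protein needed for leukotriene synthesis. Itgam was 7.82, 7.47 and 9.20 in DSS mice and 5.77, 6.58 and 6.04 in control mice. Trem1 was 7.48, 6.62 and 9.62 in DSS mice and 4.75, 6.23 and 4.59 in control mice. As for Mmp8, DSS mouse 3 was the highest and DSS mouse 2 the lowest of the DSS mice for both, and control mouse 2 was the highest control.

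Markers of cell types moved with these genes. Of 22 measured neutrophil markers, 11 rose in DSS against control mice and none fell, with a median log2 fold change of 2.01, and among the largest were Ngp (4.83), Lcn2 (4.34), which epithelium also makes, S100a8 (3.91) and Retnlg (3.83). The list's median deviation from the control mean was 1.28, 1.15 and 2.87 in DSS mice 1, 2 and 3, and 0.25, 0.14 and 0.22 in DSS+L-Arg mice. Its summed signal on the linear scale ranged over 3824 to 10840 in DSS+L-Arg, 12980 to 35550 in DSS, 1727 to 6285 in control+L-Arg and 2276 to 6946 in control mice. Ly6g, the brightest gene of the list in each group (log2 means of 13.24 in DSS and 11.25 in control mice), weighs most in this sum. Its own DSS change did not pass (1.99, SE 1.02, adjusted p = 0.318). DSS mouse 3, the highest for Mmp8, was also the highest for this list. Mpo and Elane, granule genes transcribed mainly in neutrophil precursors, stayed between 5.98 and 6.30 in DSS mice and between 5.88 and 6.25 in control mice, so that not all of the list moved. In DSS+L-Arg against DSS mice, 4 of the 22 fell and none rose (median -1.42), among them Ngp (-4.46, adjusted p = 0.00608) and Lcn2 (-3.70, adjusted p = 0.00651). The part of neutrophil number in the Mmp8 values was not tested.

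Of 22 macrophage and monocyte markers, 10 rose and none fell, with a median of 0.90, including Mpeg1 (2.13), Cybb (1.74), Cd68 (1.62) and C1qb (1.55). Their median deviation was 0.70, 0.85 and 0.89 in DSS mice 1, 2 and 3, and the summed signal ranged over 4151 to 4716 in DSS+L-Arg, 6532 to 9397 in DSS, 3601 to 5557 in control+L-Arg and 3779 to 4108 in control mice. The list medians of the DSS mice lay close together, but some single markers were spread more widely. Cd68 was 8.34, 8.89 and 9.75 and Csf1r 7.86, 7.87 and 8.52 in DSS mice 1, 2 and 3, both highest in mouse 3. C1qa was 7.69, 8.24 and 7.83, highest in mouse 2. In DSS+L-Arg against DSS mice 3 of the 22 fell and none rose (median -0.70). Of 17 fibroblast markers, 5 rose and none fell, with a median of 0.52, among them Grem1 (1.78), Dcn (1.54), Pdgfra (1.34) and Pdpn (1.27), while Col1a1 had 0.52 (adjusted p = 0.309). Their median deviation was 0.96, 0.41 and 0.18 in DSS mice 1, 2 and 3, and the summed signal ranged over 4091 to 5261 in DSS+L-Arg, 6259 to 10070 in DSS, 4451 to 9801 in control+L-Arg and 4108 to 5250 in control mice. DSS mouse 3 was the lowest of its group for the fibroblast list as for Mmp3, Mmp10 and Mmp13. Control+L-Arg mouse 3, at 0.67, lay higher on this list than 2 of the DSS mice, and its Mmp13 was 6.19 and its Mmp3 5.02. That mouse also had median deviations of 1.09 for smooth muscle, 0.50 for endothelial and 0.51 for macrophage markers, so its tissue differed in more than fibroblast markers. In DSS+L-Arg against DSS mice, 2 of the 17 fell and none rose (median -0.39). The part of macrophage and fibroblast number in the 3 genes was not tested.

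**Figure D3:**
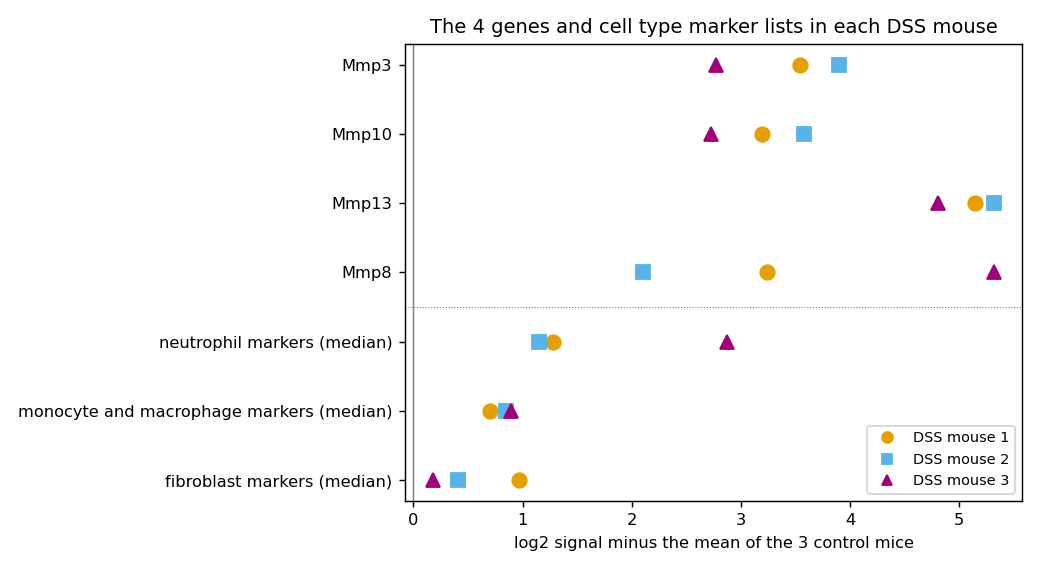
Log2 signal minus the mean of the 3 control mice for the 4 genes, and the median of the same deviation over the genes of 3 marker lists (22 neutrophil, 22 monocyte and macrophage, and 17 fibroblast markers), in DSS mice 1, 2 and 3. Mouse 3 lies lowest for Mmp3, Mmp10 and Mmp13 and highest for Mmp8 and the neutrophil markers (2.87, against 1.28 and 1.15 in mice 1 and 2).

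Of the lists that mark epithelium, the colonic one had 1 gene of 19 that fell (Car4, -0.58) and none that rose, and the squamous one had 1 of 14 that fell (Lor, -0.64). Of all 19938 genes, 803 passed in DSS against control mice, 359 of them by rising, so 1 fall in a list is not read as a result about epithelium. Krt5 and Krt14, basal keratins of squamous epithelium, differed between DSS and control mice by -0.11 (adjusted p = 0.589) and 0.04 (adjusted p = 0.91). None of 10 smooth muscle markers passed, although their median was -1.12 in DSS against control mice and -0.86 in DSS+L-Arg against control mice, and 0 of 10 endothelial markers and 0 of 14 posterior Hox genes passed. The smooth muscle and Hox lists varied widely within groups, so a difference could be missed. Their median deviations in control mice 1, 2 and 3 were -0.29, -0.42 and 0.74 for smooth muscle and 0.25, -0.63 and 0.27 for Hox genes. Whether the pieces differed between mice in place or depth was not tested.

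The 4 genes lie in 1 cluster of 10 metalloproteinase genes on chromosome 9, all of which were measured. In RefSeq's order (assembly GRCm38.p6) these are Mmp13, Mmp12, Mmp1b, Mmp3, Mmp1a, Mmp10, Mmp8, Mmp27, Mmp20 and Mmp7. Beside the 4, Mmp12, the macrophage elastase, rose in DSS against control mice by 1.05 ± 0.17 (SE, adjusted p = 0.00903), and the difference between DSS+L-Arg and DSS mice was -0.83 (adjusted p = 0.0657). Mmp7, or matrilysin, an epithelial protease, had 1.15 ± 0.33 (adjusted p = 0.0797). Mmp1a and Mmp1b, which lie on either side of Mmp3, had 0.31 (adjusted p = 0.252) and 0.19 (adjusted p = 0.493), and Mmp27 and Mmp20 had 0.15 and 0.29 (adjusted p = 0.49 and 0.148). Mmp1a, Mmp1b, Mmp27 and Mmp20 lay below a log2 signal of 5.89 in every mouse, where levels are resolved poorly, so changes in them could be missed. The flanking genes Dync2h1, Dcun1d5, Tmem123 and Birc2 had log2 fold changes between 0.09 and 0.25 and did not pass.

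**Figure D4:**
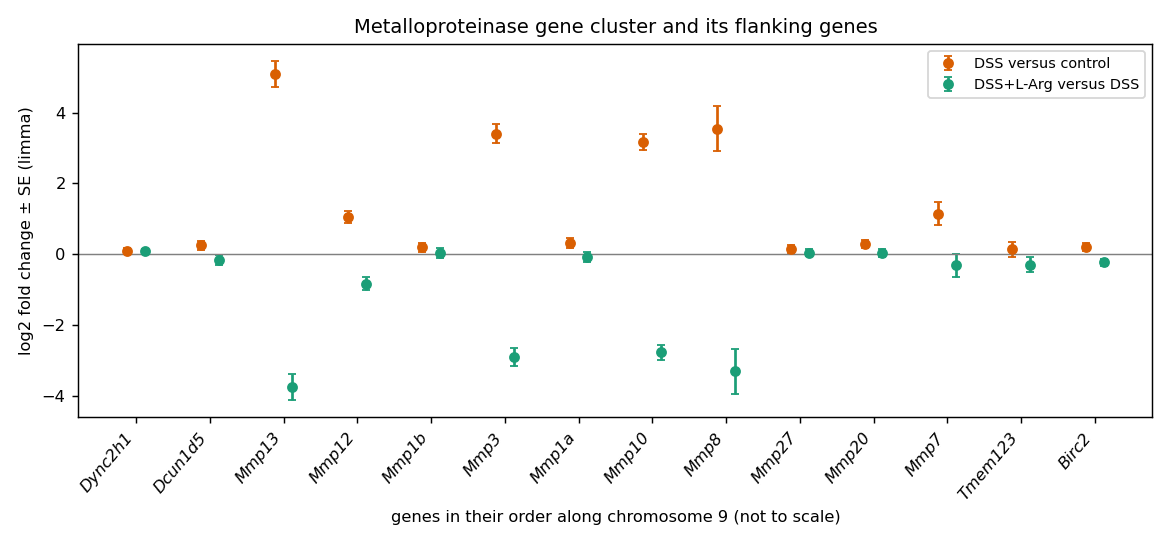
Log2 fold change with its SE from limma for the 10 metalloproteinase genes of the cluster and 4 flanking genes, in the order they have along chromosome 9 (not to scale), for DSS against control and for DSS+L-Arg against DSS mice. Genes with small changes lie between genes with large ones, as Mmp1a (0.31) does between Mmp3 (3.41) and Mmp10 (3.16). The log2 signals of Mmp1a, Mmp1b, Mmp27 and Mmp20 lay below 5.89 in every mouse, where levels are resolved poorly.

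The promoters of 3 of the 4 genes hold 2 motifs in common. The 100 bases before the start of each gene are shown from RefSeq (GRCm38.p6), since Mmp13, Mmp3 and Mmp10 were alike in pattern over the arrays and Mmp8 was not, with capitals marking the AP-1 motif TGACTCA, or TGAGTCA where it is read on the other strand, and the TATA motif TATAAA on the gene's own strand.
Mmp13, chr9:7272414-7272513, + strand: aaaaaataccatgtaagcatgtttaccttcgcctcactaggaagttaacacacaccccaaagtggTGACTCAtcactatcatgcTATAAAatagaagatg
Mmp3, chr9:7445722-7445821, + strand: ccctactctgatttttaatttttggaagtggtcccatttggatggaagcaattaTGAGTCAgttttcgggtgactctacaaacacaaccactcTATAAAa
Mmp10, chr9:7502242-7502341, + strand: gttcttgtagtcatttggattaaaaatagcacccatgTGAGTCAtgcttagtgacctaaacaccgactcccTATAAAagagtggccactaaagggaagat
Mmp8, chr9:7558329-7558428, + strand: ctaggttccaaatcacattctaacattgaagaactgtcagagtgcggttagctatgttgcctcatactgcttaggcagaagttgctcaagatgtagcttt
The AP-1 motif begins 35 bases before the start in Mmp13, 46 in Mmp3 and 63 in Mmp10, and TATAAA begins 16, 7 and 29 bases before the start of the same genes in that order. Neither was found in the 250 bases before Mmp8. Over 27025 promoters of 250 bases, 1 per gene, 4.43% held the AP-1 motif on either strand and 8.12% held TATAAA on the gene's own strand. The ETS motif AGGAAG (or CTTCCT) was found in 29.2% of all promoters and in those of Mmp13, Mmp3 and Mmp8, and the RUNX motif AACCACA (or TGTGGTT) in 4.46% and in that of Mmp13. The motifs do not overlap each other in these promoters. A match describes the letters and is not evidence of binding.

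Of 21 measured genes of AP-1, ETS, RUNX and related factors, 7 rose in DSS against control mice and none fell, with a median log2 fold change of 0.08. The largest were Runx1 (0.79, adjusted p = 0.0199), Ets1 (0.77, adjusted p = 0.0086), Runx3 (0.62, adjusted p = 0.00612) and Elk3 (0.59, adjusted p = 0.0296). In DSS+L-Arg against DSS mice 1 of the 21 fell, Runx3 (-0.50, adjusted p = 0.0456). Some AP-1 genes are named next, outside the naming rule. Junb rose in DSS against control mice by 0.47 (adjusted p = 0.043), while Fos had -0.07 (adjusted p = 0.87) and Jun -0.21 (adjusted p = 0.625). Atf3 had the largest difference of the list in either direction, -1.10, but did not pass (adjusted p = 0.0767). Between DSS+L-Arg and DSS mice Atf3 had 1.03 (adjusted p = 0.2).

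Among 18 cytokines and growth factors known to induce stromelysins or collagenases, 6 rose in DSS against control mice and 5 fell in DSS+L-Arg against DSS mice. Il6, a cytokine of stromal and myeloid cells, rose by 1.70 ± 0.14 (SE, adjusted p = 0.00019), and differed by -1.52 between DSS+L-Arg and DSS mice (adjusted p = 0.000945). Its log2 signal lay below 5.89 in every mouse, where levels are resolved poorly, so the size of these changes is approximate. Inhba, the activin A subunit, rose by 1.64 (adjusted p = 0.0165), Hgf by 1.42 (adjusted p = 0.00652) and Fgf7, a growth factor of fibroblasts for epithelium, by 1.15 (adjusted p = 0.0273), and the DSS+L-Arg mice had -1.61, -1.22 and -1.28 against the DSS mice (adjusted p = 0.0489, 0.0364 and 0.0489). Il1b, a classical inducer of Mmp3 and named here after its value was seen, differed by 3.10 between DSS and control mice with a wide error (SE 0.89, adjusted p = 0.0779).

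The 18 other measured metalloproteinase genes had smaller log2 fold changes than the 4 in DSS against control mice. Of these, 5 rose and none fell, with a median of 0.24. Not every gene named a collagenase or stromelysin passed. Mmp1a and Mmp1b, grouped with the collagenases by name, and Mmp11, also named a stromelysin, had 0.31, 0.19 and 0.05 (adjusted p = 0.252, 0.493 and 0.856). Mmp1a and Mmp1b lay below a log2 signal of 5.89 in every mouse, where levels are resolved poorly, so a change in them could be missed. Mmp9, a gelatinase of neutrophil granules, rose by 2.21 ± 0.49 (SE, adjusted p = 0.0312), Mmp19 by 1.86 ± 0.25 (adjusted p = 0.00308), Mmp2, the gelatinase of stromal cells, by 1.65 ± 0.38 (adjusted p = 0.0367) and Mmp14, the membrane protease that activates proMmp2, by 0.73 ± 0.12 (adjusted p = 0.00903), with Mmp12 as given above. In DSS+L-Arg against DSS mice, 1 of the 18 fell, Mmp19 (-1.67, adjusted p = 0.018), while Mmp9 had -2.15 (adjusted p = 0.0905), Mmp2 -1.45 (adjusted p = 0.143) and Mmp14 -0.60 (adjusted p = 0.0536). Mmp9 and Mmp2 thus had larger differences than some called genes but wider errors, with an SE of 0.49 and 0.38.

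Of 7 measured inhibitors, Timp1, which blocks the active site of most secreted metalloproteinases, rose by 2.07 ± 0.23 (SE, adjusted p = 0.00148) in DSS against control mice and was the one gene of the list that passed. Its log2 signals were 6.56, 6.36 and 6.42 in DSS+L-Arg mice, 8.04, 7.49 and 8.20 in DSS mice, 6.57, 6.00 and 5.83 in control+L-Arg mice and 5.48, 6.11 and 5.95 in control mice. The DSS mice lay above all others, with mouse 2 the lowest of them, and the DSS+L-Arg mice lay below DSS mice by 1.47 (SE 0.23, adjusted p = 0.023). Timp2, Timp3 and Timp4 had -0.01, 0.10 and -1.30 in DSS against control mice (adjusted p = 0.997, 0.928 and 0.0847).

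A list of 14 genes held proteases that activate proenzymes and Plaur, the receptor of urokinase. Of these, Plau rose by 2.80 ± 0.14 (SE, adjusted p = 4.51e-06, the lowest of all genes), Plat, the tissue plasminogen activator, by 2.29 ± 0.36 (adjusted p = 0.00773) and Prss22, a serine protease, by 1.30 ± 0.31 (adjusted p = 0.0393), and none fell. Plau and Plat fell in DSS+L-Arg against DSS mice, by 2.32 (adjusted p = 3.55e-05) and by 1.93 (adjusted p = 0.0456), and Prss22 had -0.48 (adjusted p = 0.518). Of 22 substrates of these enzymes, 5 rose and none fell in DSS against control mice, and the 4 largest were tenascin-C (Tnc, 1.74, adjusted p = 0.0268), decorin (Dcn, 1.54, adjusted p = 0.0116), versican (Vcan, 1.08, adjusted p = 0.0292) and a laminin chain (Lamc1, 0.72, adjusted p = 0.0462). Dcn and Lamc1 fell in DSS+L-Arg against DSS mice (-1.37 and -0.91, both adjusted p = 0.0489). Collagens I and III, the substrates of collagenases, did not pass, with log2 fold changes of 0.52 for Col1a1 (adjusted p = 0.309), 0.53 for Col1a2 (adjusted p = 0.281) and 0.66 for Col3a1 (adjusted p = 0.134) in DSS against control mice. Some genes stand in more than 1 list, such as Dcn and Col1a1.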

How the data were processed

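Colon RNA of 12 mice was measured on arrays, 3 mice per group, with groups and replicate numbers taken from the labels. The authors deposited log2 signals per probe set, made per their processing notes with Affymetrix Expression Console 1.1 and RMA, which corrects background, quantile-normalizes the arrays and summarizes probes, and the notes name build mm9. Quantile normalization would hide a change shared by most genes. For arrays, precision is limited by how many mice there were.

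Of 35556 probe sets, 21789 carried 1 gene in the platform table, 1621 with several genes and 12146 not listed there were left out, and the brightest probe set stood for each of 19938 genes. Arrays of 1 group differed by over 0.01 in at least 95.1% of genes. The labels call the samples biological replicates. A linear model with group means was fitted to all 12 arrays (8 residual and 3.37 prior degrees of freedom) in limma 3.58.1 (R 4.3.3), and p-values were adjusted over all genes by Benjamini-Hochberg. SAM, which the study names, was not used here. The test with an unequal variance per group, and each other alternative, is given at the end. Differences between genes in their DSS change were tested by exact permutation in SciPy 1.17.1. Same-numbered mice deviated together (every r over 0.1) in 1 of 6 pairs of groups, control+L-Arg with control, from the data and not the labels. The code was tested on simulated data.

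Promoters came from RefSeq's GRCm38.p6 table, whose assembly differs from mm9, and all 4 genes matched. The 4 genes, the lists and the tests were chosen with earlier results of these data known. Named are the 4 genes, for each list up to 4 called genes with the largest DSS change, the 5 genes most like each of the 4, other metalloproteinases, Timp1 and defining cell markers, and exceptions are marked.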

Additional observations from a re-analysis of the deposited data

Results flagged for a closer look

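The effect of L-Arg differed between mice with and without DSS for 3 of the 4 genes. The effect in DSS mice minus the effect in mice without DSS was -4.42 on the log2 scale for Mmp13, -3.10 for Mmp3 and -3.07 for Mmp10 (adjusted p = 0.0119, 0.0119 and 0.00315). These 3 genes were already low without DSS, which left little room for a fall there. The difference therefore cannot tell whether L-Arg acts only in mice with DSS. No test of single outlying mice was made.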

How the results depend on the processing

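The limits of 3 mice per group showed most in Mmp8. With a separate variance per group, 0 of the 4 genes were called in DSS against control, in DSS+L-Arg against DSS and in DSS against control+L-Arg mice, where limma called 4 each. That test called 0 of 19938 genes in each of these, while 4, 3 and 3 of the 4 had an unadjusted p under 0.05. With 1 mouse left out in turn, 3 to 4 of the genes were called in these comparisons and 1 to 3 for L-Arg with DSS against L-Arg without it. Fitting only the groups compared cost Mmp8 its call in all 3 comparisons (adjusted p = 0.106, 0.217 and 0.118), and a trended and robust prior did so in DSS+L-Arg against DSS (adjusted p = 0.0873). Median centring, further quantile normalization, the filter on low signals and array weights kept the calls of the 4 genes. Mmp3 and Mmp8 pass that filter only through the DSS mice, so it is no check on their calls. Averaging probe sets changed nothing, as each of the 4 had 1.

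Replicate numbers did not pair the mice in 5 of 6 pairs of groups, where same-numbered mice did not all deviate together (lowest r -0.355). The exception was control+L-Arg with control, where r was 0.205, 0.477 and 0.261. There a replicate block called 0 of the 4 genes, as did a blocked fit of these 6 arrays alone, added after the data were seen (adjusted p between 0.663 and 0.948, 0 of the 4 with an unadjusted p under 0.05). With a replicate block, 3 of the 4 genes were called in DSS+L-Arg against DSS mice, where Mmp8 had an adjusted p of 0.0707, and no other call of the 4 genes changed.

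The share of the DSS change left after L-Arg was 4.80%, 4.22% and 3.81% on the linear scale for Mmp13, Mmp3 and Mmp10, and 15.1%, 9.49%, 3.45% and 9.80% with control+L-Arg as the baseline for Mmp13, Mmp3, Mmp10 and Mmp8. With 1 mouse left out (DSS+L-Arg mice added after the data were seen) it ranged over 19.8% to 29.6% for Mmp13, 10.7% to 19.1% for Mmp3, 8.77% to 14.7% for Mmp10 and -0.76% to 16.6% for Mmp8. Some log2 differences near 0 changed sign with 1 mouse left out. Mmp8 in control+L-Arg against control ranged over -0.38 to 0.30 and changed sign without control mouse 2 or control+L-Arg mouse 2, and in DSS+L-Arg against control it ranged over -0.025 to 0.66, negative without control mouse 3. Mmp3 in control+L-Arg against control ranged over -0.0099 to 0.30, negative without control+L-Arg mouse 1. Mmp10 in DSS+L-Arg against control+L-Arg ranged over -0.019 to 0.31, negative without control+L-Arg mouse 2 or DSS+L-Arg mouse 1. For the DSS change, Mmp13 minus Mmp8 ranged over 0.31 to 2.18, Mmp3 minus Mmp8 ranged over -1.28 to 0.90 and Mmp10 minus Mmp8 over -1.52 to 0.51, positive without DSS mouse 3. The causes were not tested.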
